A study of Homo sapiens with 6 samples.

Results

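The interleukin 1 (IL-1) family and its receptors were followed as 10 genes, taken by symbol from the 59008 gene symbols of the deposited table. They comprise the agonists IL1A and IL1B, the receptor antagonist IL1RN, the related cytokines IL18 and IL33, the protease gene CASP1, the receptors IL1R1, IL1R2 and IL1RL1, and the shared receptor chain IL1RAP. All 10 symbols were present. The genes were followed through the formation of polyploid giant cancer cells (PGCCs), which are enlarged cells with multiplied genomes that survive a mitotic drug and later bud off smaller daughter cells. The libraries came from Hey and SKOV3, both established human ovarian cancer cell lines. Parental cells were untreated. PGCCs had received 500 nM paclitaxel, which freezes microtubules and stops mitosis, for 16 h and had then recovered in regular medium for 3 days. The label of the SKOV3 PGCC library also gives day 7 in its title. Daughter cells came from the same treatment after 30 days of recovery and are named as 1 clone per line, so that a clone and the daughter state cannot be told apart. Hey was grown in MEM Eagle and SKOV3 in RPMI-1640 medium, both with fetal bovine serum.

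IL-1 is an alarm cytokine. Both agonists bind the receptor IL1R1, which then recruits the accessory chain IL1RAP and signals through MYD88 and IRAK kinases to NF-κB. IL1RN occupies the receptor without signalling, and IL1R2 is a decoy that binds the ligand but lacks a signalling domain. IL1A is active as its precursor, whereas the precursors of IL1B and IL18 are cut by caspase-1, the product of CASP1, within inflammasomes. IL33 signals through IL1RL1, also called ST2, together with IL1RAP. In tumours, IL-1 from cancer cells is known as an inducer of IL6, chemokines and granulocyte growth factors.

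RNA-seq was made from 1 library per line and state, 6 in all. The values therefore carry no error and a difference between states of 1 line has no p-value. The second line is the only repeat of a comparison. Levels are given as TPM, a transcript abundance scaled to a common total in each library, which is corrected for transcript length and can be compared between genes. The columns summed to 911825 to 920497 TPM. Genes above 0 ranged from 19920 in Hey parental cells to 25370 in Hey PGCCs. The part of this in the differences of members near 0 was not tested. Differences are differences of log2(TPM + 1), which understate the change of genes near 0, and a gene was counted as past 2-fold at a difference of at least 1. All shares of genes past 2-fold refer to the 14988 genes whose TPM averaged 1 or more. Of the 10 members, 8 met this mean and 6 were above 0 in all libraries. IL1RN and IL33 were below the mean and are described by their values. They are counted among the 10 members but are not part of the shares of all genes. The mitochondrial share of the TPM ranged from 2.64% in Hey parental cells to 14.8% in SKOV3 daughter cells. In the SKOV3 PGCC library, the difference from parental cells followed GC content across genes (Spearman 0.70 over 13468 genes, against -0.04 in Hey). As the RNA is from whole cultures, fewer cells of a type and less RNA per cell cannot be told apart.

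The labelled cell type was checked by its markers. The epithelial keratins KRT8 and KRT18 stood at 220.4 TPM or more in each library, and PAX8, a transcription factor of the ovarian and tubal epithelium, at 54.7 TPM or more. KRT7 was also high, at 312 TPM or more. The other markers of this list of 9 were lower or uneven. MUC16 did not exceed 1.59 TPM, and WT1 ranged from 0.530 to 4.10 TPM. EPCAM was 68.8, 43.6 and 8.15 TPM in SKOV3 parental cells, PGCCs and daughter cells, and 1.43 TPM at most in Hey. In daughter cells against parental cells, 3 markers were past 2-fold the same way in both lines. MSLN was lower, at 21.5 and 0.386 TPM in Hey and 33.1 and 1.85 TPM in SKOV3. KRT19 was lower too, at 2.47 TPM and listed at 0 in Hey and at 292 and 80.2 TPM in SKOV3. WT1 was higher, at 1.34 and 4.10 TPM in Hey and 0.545 and 2.91 TPM in SKOV3. Of 10 leukocyte markers, CD3E, MS4A1 and TYROBP were listed at 0 throughout and PTPRC did not exceed 0.425 TPM. The summed leukocyte list ranged from 46.5 to 70.9 TPM in Hey and from 2.29 to 20.7 TPM in SKOV3. Nearly all of it was the lysosomal gene CD68, at 46.3, 69.3 and 45.6 TPM in Hey and 17.1, 20.0 and 0.84 TPM in SKOV3 parental cells, PGCCs and daughter cells. The 8 fibroblast markers summed to 0.274 to 3.66 TPM in Hey and 12.9 to 28.3 TPM in SKOV3. The 5 endothelial markers summed to at most 49.2 TPM in Hey and 3.02 TPM in SKOV3, with CDH5 as the main part in Hey.

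The main results were as follows. In Hey, both IL-1 agonist genes were high in parental cells and several-fold higher still in PGCCs. In Hey daughter cells IL1B was back near the parental level and IL1A was 1.58-fold below it. In SKOV3, neither was past 2-fold in PGCCs, and both were lower in daughter cells, IL1A by 14.6-fold and IL1B to 0.305 TPM. IL18 was nearly gone from Hey daughter cells, where 74.3 TPM in PGCCs stood against 0.345 TPM, and the IL-1 receptor IL1R1 was 7.86-fold higher in SKOV3 daughter cells than in parental cells. The plot of the levels of all members shows these patterns side by side.

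**Figure D1:**
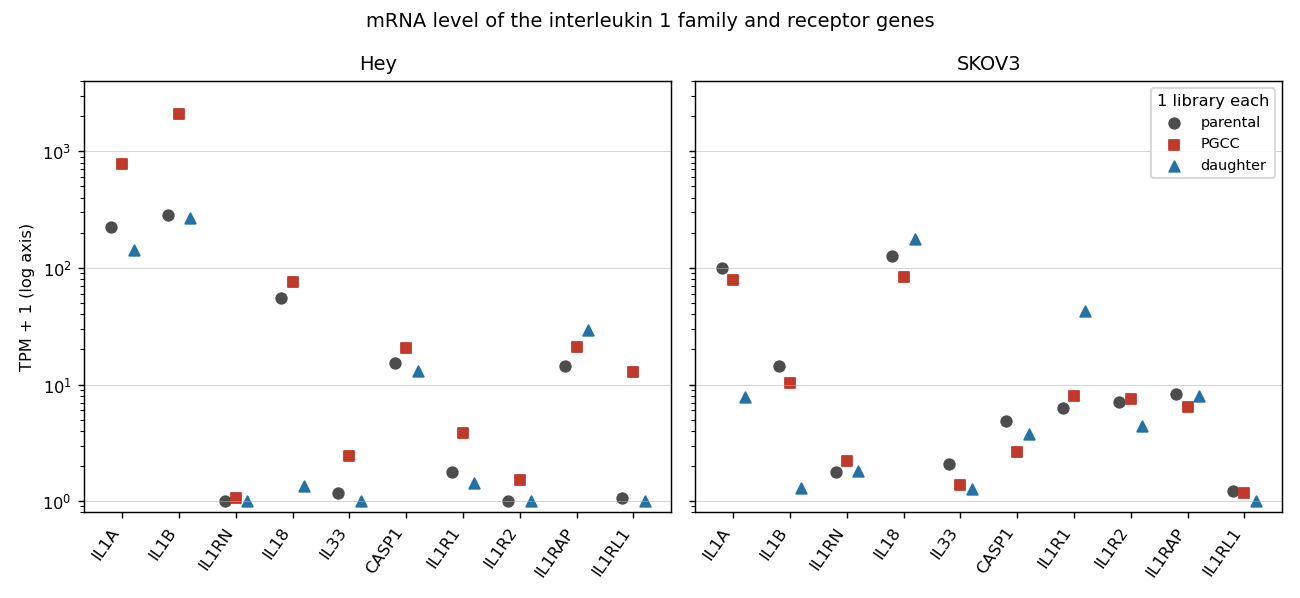
Level of each of the 10 genes as TPM + 1 on a log axis for the 3 states of Hey (left) and SKOV3 (right), each point being 1 library. IL1B reached 2105 TPM in Hey PGCCs, IL18 stood at 0.345 TPM in Hey daughter cells, and IL1R1 reached 41.6 TPM in SKOV3 daughter cells.

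IL1A and IL1B lie close together on chromosome 2, at chr2:112773925-112784493 and chr2:112829751-112836816 on the minus strand of GRCh38 (GENCODE 44). IL1B, the secreted agonist, measured 284 TPM in Hey parental cells, reached 2105 TPM in PGCCs and stood at 265 TPM in daughter cells. In SKOV3 it measured 13.5 TPM before treatment, 9.23 TPM in PGCCs and 0.305 TPM in daughter cells. In each state the Hey library was above the SKOV3 library. IL1A, the agonist that is active without cutting and is often kept in the cell or on its surface, measured 221, 778 and 140 TPM in Hey parental cells, PGCCs and daughter cells. Its SKOV3 levels were 99.3, 77.6 and 6.82 TPM in the same order. IL1A was also higher in Hey in each state, and the daughter cells were the lowest state in both lines.

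In the order of all genes by TPM, IL1B was at place 411 in Hey parental cells, at place 73 in PGCCs and at place 467 in daughter cells. IL1A was at place 162 in Hey PGCCs and 548 in Hey parental cells. In SKOV3 daughter cells IL1A was at place 10322 and IL1B at place 18632, against 1483 and 7317 in SKOV3 parental cells. Both genes thus ranked among the more abundant mRNAs of Hey in all 3 states, whereas IL1B did not in any SKOV3 library.

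The balance of the agonists also differed between the lines. The ratio of IL1B to IL1A TPM was 1.28 in Hey parental cells, 2.71 in their PGCCs and 1.90 in daughter cells. In SKOV3, IL1A was the larger of the pair, by 7.36-fold, 8.41-fold and 22.4-fold in parental cells, PGCCs and daughter cells. Together both genes made up 85.9%, 95.7% and 90.8% of the summed TPM of the 10 members in Hey, and 43.0%, 45.1% and 2.99% in SKOV3.

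The upstream sequences of both agonist genes are shown because these genes were higher together in Hey PGCCs and lower together in SKOV3 daughter cells. Each is the 250 bases before a RefSeq transcription start on GRCh38.p14, minus strand, written 5′ to 3′, at chr2:112784494-112784743 for IL1A (the more upstream of its listed starts) and chr2:112836780-112837029 for IL1B. Capitals mark matches to the searched motifs, which were an AP-1 site TGANTCA, a C/EBP site TTGCNNAA, TATAAA and the NF-κB consensus, each on both strands.
IL1A: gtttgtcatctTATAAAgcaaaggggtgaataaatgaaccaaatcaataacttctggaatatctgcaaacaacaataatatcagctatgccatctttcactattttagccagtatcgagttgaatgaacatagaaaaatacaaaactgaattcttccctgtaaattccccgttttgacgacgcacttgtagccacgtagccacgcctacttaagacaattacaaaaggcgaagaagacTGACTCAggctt
IL1B: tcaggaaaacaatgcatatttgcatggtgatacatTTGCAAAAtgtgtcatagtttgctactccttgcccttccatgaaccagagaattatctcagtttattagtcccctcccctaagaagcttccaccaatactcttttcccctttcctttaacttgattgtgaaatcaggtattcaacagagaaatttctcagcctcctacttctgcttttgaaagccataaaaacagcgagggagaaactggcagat
In IL1A, an AP-1 match began 12 bases before the start and TATAAA 239 bases before it. In IL1B, a C/EBP match began 215 bases before the start. Neither window held a match to the NF-κB consensus. Of 35116 promoter windows of the same length in the RefSeq table, 6.57% held the AP-1 letters, 9.05% the C/EBP letters, 10.7% TATAAA and 9.96% the NF-κB consensus. RefSeq entries were found for 8 of the 10 members, with 17 windows, IL18 and CASP1 being the others. The AP-1 letters occurred in 4 windows, those of IL1A, IL1RL1 and IL1RN, and the NF-κB consensus in 1 window, of IL1R2. The IL1A windows overlap and both hold the AP-1 match shown above, so that site is counted in each of them. These matches are letters in a window and not shown binding sites.

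To find which members accompany PGCC formation, PGCCs were compared with parental cells. In Hey, 5 of 10 members were past 2-fold higher and 0 lower, against 7.67% and 5.22% of all genes. The members were IL1RL1, IL1B, IL1A, IL1R1 and IL33. IL33 averaged below 1 TPM and is not in these shares. IL1RL1 averaged 1 TPM or more only through the Hey PGCCs, where it was called higher. The median difference over all 10 members was 0.84, beside 0 over all genes. IL1B was 7.43-fold higher on TPM, a log2 difference of 2.89, which 125 genes reached or passed. IL1A was 3.51-fold higher, a log2 difference of 1.81. Both agonists kept a difference past 2-fold under each of the 5 other scalings and pseudocounts tried, between 1.73 and 1.96 for IL1A and between 2.65 and 3.04 for IL1B.

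IL1RL1, the IL-33 receptor, had the largest difference of the 10 genes. Its level was 0.0656 TPM in Hey parental cells and 11.9 TPM in Hey PGCCs, and it was listed at 0 in the daughter cells, a log2 difference of 3.60 between PGCCs and parental cells. In SKOV3 it was listed at 0.231, 0.166 and 0 TPM. Hey PGCCs were thus the single library with more than a trace of its mRNA. IL18R1, the IL-18 receptor gene whose annotated start lies within the IL1RL1 locus, was 1.48 TPM in Hey parental cells and 2.35 TPM in Hey PGCCs, a difference under 2-fold. Since both genes overlap, how their reads were divided is uncertain, for the 11.9 TPM of IL1RL1 as well. The ligand of IL1RL1, IL33, a nuclear alarmin released from damaged cells, was 0.170, 1.46 and 0 TPM in Hey and 1.07, 0.367 and 0.261 TPM in SKOV3. At such levels its log2 difference of 1.07 in Hey PGCCs rests on little mRNA and was 0.87 after quantile normalization.

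The receptor genes other than IL1RAP lie in a cluster on chromosome 2, IL1R2 at chr2:101991960-102028544, IL1R1 at chr2:102064544-102179874 and IL1RL1 at chr2:102311502-102352037, all on the plus strand. IL1R1, the signalling receptor of IL-1, was 0.783 TPM in Hey parental cells and 2.87 TPM in Hey PGCCs. This is a log2 difference of 1.12, or 0.80 after quantile normalization, which is under 2-fold. The decoy IL1R2 was listed at 0 in Hey parental and daughter cells and at 0.523 TPM in Hey PGCCs. There were 8 genes within 500 kb of IL1RL1 that averaged 1 TPM or more over the 6 libraries. All had a positive difference in Hey PGCCs, from 0.11 for MAP4K4 to 1.12 for IL1R1, and IL1R1 alone was past 2-fold. Some were low in Hey, such as LINC01127 (0 and 0.218 TPM in parental cells and PGCCs), SLC9A2 (0.521 and 0.833 TPM) and IL1R2. Of all 14988 genes, 6613 had a difference of at least 0.076 in this comparison. The neighbouring genes were examined after the values of the members had been seen.

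The remaining Hey members stayed under 2-fold in PGCCs. IL1RAP, the accessory chain on chr3:190514051-190659750 that IL1R1 and IL1RL1 share, was 13.3 TPM in parental cells and 19.9 TPM in PGCCs. IL18, on chr11:112143253-112164096, was 54.2 and 74.3 TPM. CASP1, on chr11:105025397-105035250, was 14.4 and 19.4 TPM. The antagonist IL1RN was listed at 0 in parental cells and 0.0542 TPM in PGCCs, against 2883 TPM of both agonists together.

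In SKOV3, 0 of 10 members were past 2-fold in PGCCs in either direction, against 9.94% of all genes higher and 4.96% lower. The median over the members was -0.35, beside 0.02 over all genes. IL1B had a log2 difference of -0.50 and IL1A of -0.35, where the value for IL1A was 0.23 once a GC and length trend had been removed. The lowest difference was that of CASP1, 3.89 TPM in parental cells and 1.64 TPM in PGCCs, a log2 difference of -0.89. The highest was that of IL1R1, 5.29 and 6.90 TPM, at 0.33. IL18 was 124.6 TPM in parental cells and 83.2 TPM in PGCCs. With a smaller pseudocount of 0.1, CASP1 and IL33 were past 2-fold lower, at -1.20 and -1.33. With the GC and length trend removed, CASP1 was at -0.44 and IL18 at -0.01, in place of -0.58. IL1RAP was then at -0.09, in place of -0.34, IL1B at -0.40 and IL1R1 at 0.44.

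**Figure D2:**
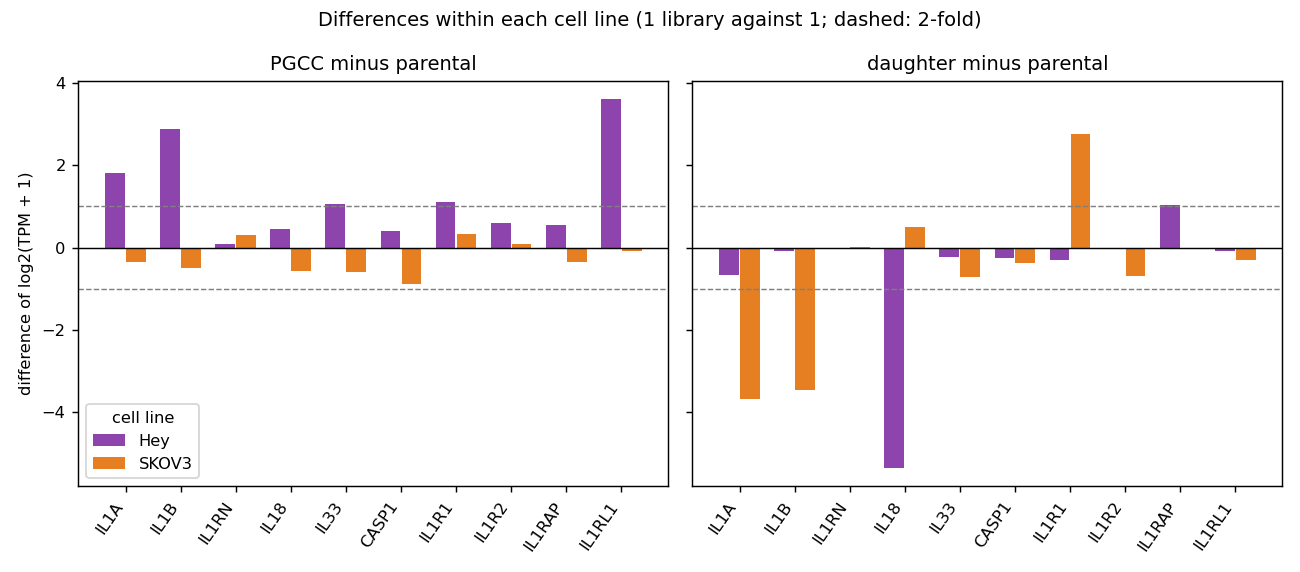
Difference of log2(TPM + 1) for each member, PGCCs minus parental cells (left) and daughter cells minus parental cells (right), in Hey (purple) and SKOV3 (orange), each bar being 1 library against 1 and the dashed lines 2-fold. In PGCCs the bars past the lines are all those of Hey, and in daughter cells IL1A and IL1B are at -3.68 and -3.47 in SKOV3 and IL18 at -5.36 in Hey.

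Daughter cells were compared with parental cells to see what remained after recovery. These comparisons share the parental library with those of PGCCs. In Hey, 1 of 10 members was past 2-fold higher and 1 lower, against 6.31% and 3.73% of all genes. IL18, a cytokine that induces interferon-γ in lymphocytes, was 54.2 TPM in parental cells and 0.345 TPM in daughter cells. The log2 difference of -5.36 was reached or passed by 5 of the 14988 genes, IL18 included. It lay between -6.93 and -5.26 under the 5 rescalings. Of the 14 genes within 500 kb of IL18, 0 were past 2-fold in this comparison, with a range from -0.92 to 0.63 and a median of 0.03. SDHD and PTS, the nearest of these on either side of IL18, were at -0.23 and -0.12. In SKOV3, IL18 was 124.6 TPM in parental cells and 175 TPM in daughter cells, and it was the highest of the 10 members in all 3 SKOV3 libraries.

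IL1RAP was the member past 2-fold higher in Hey daughter cells, at 28.2 TPM against 13.3 TPM, a log2 difference of 1.03. This call was close to the threshold and fell below it after median ratio scaling (0.91), quantile normalization (0.87) and removal of the GC and length trend (0.98). In SKOV3, IL1RAP was 7.22, 5.47 and 7.04 TPM in parental cells, PGCCs and daughter cells. The remaining members of Hey daughter cells were under 2-fold from their parental values, with IL1B at a log2 difference of -0.09, IL1A at -0.66 and CASP1 at -0.24.

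In SKOV3 daughter cells, 1 of 10 members was past 2-fold higher and 2 lower, against 15.1% and 6.34% of all genes. IL1A was 99.3 TPM in parental cells and 6.82 TPM in daughter cells, 14.6-fold lower, with a log2 difference of -3.68. IL1B was 13.5 and 0.305 TPM, a log2 difference of -3.47. As many as 71 genes were at or below the difference of IL1A and 82 at or below that of IL1B. Within 500 kb of the pair, SLC20A1 and CKAP2L were also past 2-fold lower, at -1.61 and -1.42, while TTL, POLR1B, CHCHD5, RGPD8 and PAX8 were between -0.27 and 0.76.

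IL1R1 moved the other way. Its level was 5.29 TPM in SKOV3 parental cells, 6.90 TPM in the PGCCs and 41.6 TPM in the daughter cells, a log2 difference of 2.76 between daughter and parental cells that stood between 2.54 and 2.95 under the rescalings. The decoy IL1R2 was 6.15, 6.58 and 3.43 TPM in the same order. The ratio of IL1R1 to IL1R2 was therefore 0.860, 1.05 and 12.1. In the receptor cluster, LINC01127 (1.45 to 11.8 TPM) and IL18R1 (0.848 to 6.51 TPM) were also past 2-fold higher in SKOV3 daughter cells, while MAP4K4 and SLC9A2 were past 2-fold lower, at -1.23 and -1.19. In Hey daughter cells IL1R1 was 0.436 TPM, a log2 difference of -0.31 from parental cells.

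The antagonist IL1RN, at chr2:113099315-113134016 on the plus strand, was 0.777, 1.22 and 0.798 TPM in SKOV3 parental cells, PGCCs and daughter cells. Relative to the summed TPM of IL1A and IL1B, this was 0.689%, 1.40% and 11.2%. The last value reflects the lower agonist level, which was 113, 86.8 and 7.13 TPM, and not a higher antagonist level. In Hey the same share did not exceed 0.00188%.

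**Figure D3:**
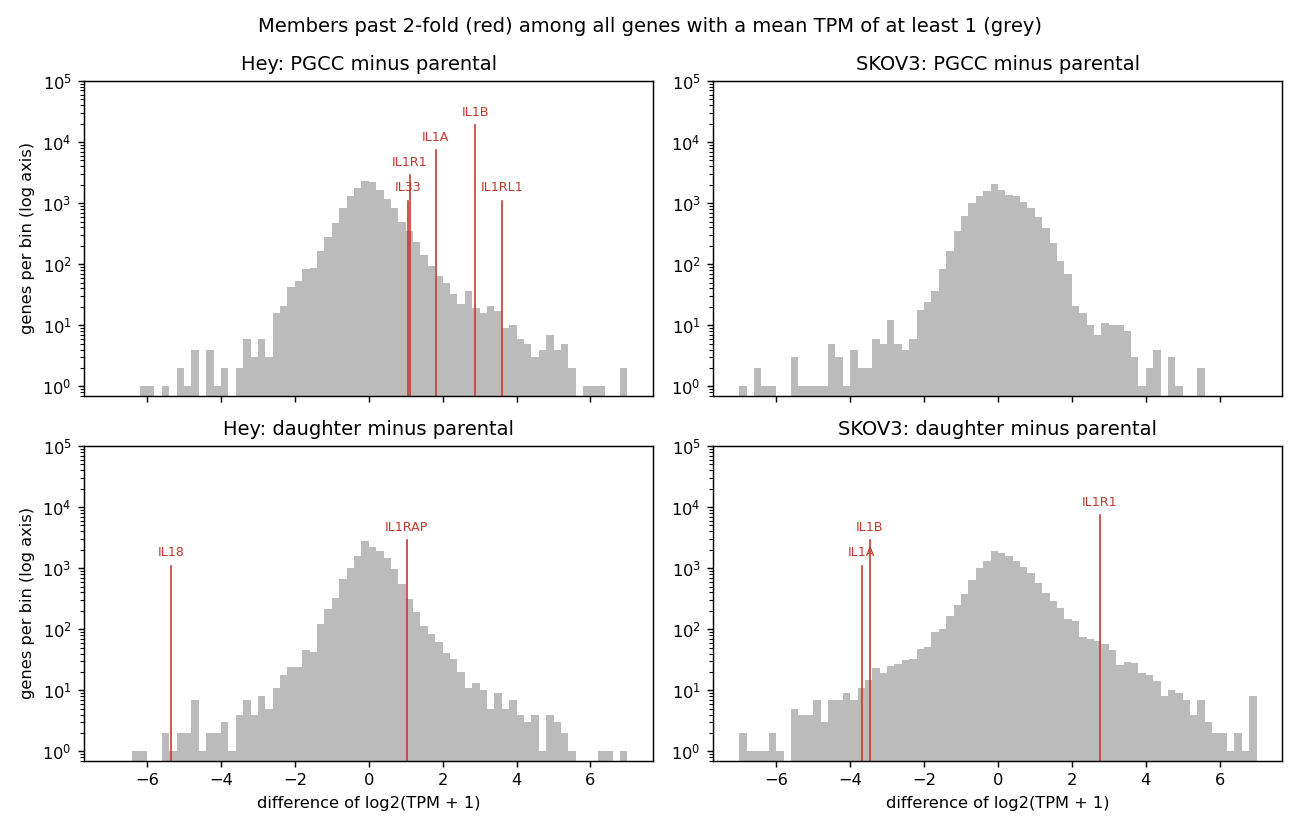
Histograms of the difference of log2(TPM + 1) for the genes averaging 1 TPM or more (grey, gene number on a log axis, values beyond the axis counted in the end bins) for PGCCs and daughter cells against parental cells in each line. Red lines mark the members past 2-fold, of which IL33 averages below 1 TPM and is not in the grey bars, and line heights carry no value. IL18 in Hey daughter cells lies in the far lower tail, and SKOV3 PGCCs have no marked member.

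Daughter cells were also set against PGCCs, with libraries that the comparisons above share. In Hey, 6 of 10 members were past 2-fold lower and 0 higher, against 8.13% and 9.95% of all genes. They were IL18 at a log2 difference of -5.81, IL1RL1 at -3.69, IL1B at -2.98, IL1A at -2.46, IL1R1 at -1.43 and IL33 at -1.30. Again, IL33 is not in these shares, and IL1RL1 is in them only through the Hey PGCCs. In SKOV3, 2 members were past 2-fold lower and 2 higher, against 9.25% and 14.6% of all genes. IL1A was at -3.33 and IL1B at -2.97, while IL1R1 was at 2.43 and IL18 at 1.06, or 0.65 once the GC and length trend had been removed. Both agonists were thus past 2-fold lower in daughter cells than in PGCCs in 2 of 2 lines, from unequal starting levels.

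The model over both lines treats the disagreement between Hey and SKOV3 as the spread. In limma, with cell line as a term, 2 residual degrees of freedom and Benjamini-Hochberg adjustment, 0 of the 8 members tested passed an adjusted p of 0.05 in any of the 3 contrasts. Of all genes, 0.02% passed for PGCCs against parental cells, 0.0133% for daughter against parental cells and 0% for daughter cells against PGCCs. For the last contrast, 758 genes had an unadjusted p under 0.05, IL1A and IL1B being the 2 members among them. The limma log2 difference between daughter cells and PGCCs was -2.90 (SE 0.67, adjusted p = 0.908) for IL1A and -2.98 (SE 0.80, adjusted p = 0.908) for IL1B. For PGCCs against parental cells it was 0.73 (SE 0.67, adjusted p = 1) for IL1A and 1.19 (SE 0.80, adjusted p = 1) for IL1B. For daughter cells against PGCCs, Hey and SKOV3 were at -2.46 and -3.33 for IL1A and at -2.98 and -2.97 for IL1B. Neither gene passed the adjustment over 14988 genes. The like values of IL1B depend on the pseudocount, since IL1B was at 0.305 TPM in SKOV3 daughter cells. With a pseudocount of 0.1 they were -2.99 in Hey and -4.53 in SKOV3.

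Between the lines, within a state, 6 of 10 members were past 2-fold before treatment, 8 in PGCCs and 7 in daughter cells, against 35.7%, 43% and 41.8% of all genes in either direction. IL1B was 21.0-fold higher in Hey than in SKOV3 parental cells and 228-fold higher in PGCCs. IL1A was 2.23-fold, 10.0-fold and 20.5-fold higher in Hey parental cells, PGCCs and daughter cells. CASP1 was also higher in Hey, by 3.70-fold, 11.8-fold and 4.37-fold. The decoy IL1R2 was past 2-fold lower in Hey in all 3 states. IL1R1 was past 2-fold lower in Hey parental and daughter cells, at log2 differences of -1.82 and -4.89, and close to the threshold in PGCCs, at -1.03. IL1RN was also close to it in PGCCs, at -1.07, but is not in the shares of all genes. The median of all genes between the PGCCs was -0.35, and the count of 8 members there was 6 after median ratio scaling. It was also 6 after removal of the GC and length trend, where IL1RN was not recomputed and so not counted. The shared receptor chain IL1RAP was past 2-fold higher in Hey PGCCs and daughter cells, at log2 differences of 1.69 and 1.86. In parental cells it was at 0.80. IL1RL1 was past 2-fold higher in Hey in PGCCs alone, at 3.47. The cytokine IL18 was past 2-fold lower in Hey parental and daughter cells, at -1.19 and -7.03, and at -0.16 in PGCCs. IL1A, IL1B and CASP1 were thus more abundant in Hey, and IL1R1 and IL1R2 in SKOV3. The members as a whole did not divide into ligands and receptors, each value being 1 library against 1.

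The order of the members by level differed between the lines. In Hey parental cells it ran IL1B, IL1A, IL18, CASP1, IL1RAP and IL1R1, and in Hey PGCCs IL1B, IL1A and IL18 again led. In Hey daughter cells IL18 had dropped to the sixth place and IL1RAP stood after both agonists. In SKOV3 parental cells and PGCCs the order began with IL18, IL1A and IL1B, and in SKOV3 daughter cells with IL18, IL1R1 and IL1RAP. Since no library has a replicate, neighbours of similar TPM, such as IL1RAP and CASP1 in Hey PGCCs (19.9 and 19.4 TPM), cannot be ordered.

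The other genes of the pathway were taken as whole lists. Of 7 further ligands and binding proteins, 1 averaged 1 TPM or more, and IL36A and IL1F10 were listed at 0 throughout. In Hey PGCCs 1 of the 7 was past 2-fold higher, beside 7.67% of all genes. It was IL36G, an epithelial cytokine below that mean, at 0 and 1.41 TPM. IL18BP, the secreted inhibitor of IL-18, was 1.08, 0.880 and 1.35 TPM in Hey and 2.42, 3.63 and 2.15 TPM in SKOV3. Of 6 further receptors, IL1RAPL1, a synaptic relative of IL1RAP, was past 2-fold higher in daughter cells of both lines, from 0.736 to 7.96 TPM in Hey and from 0.376 to 3.99 TPM in SKOV3. It was also past 2-fold higher in Hey PGCCs, at 2.69 TPM.

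Of 16 genes of IL-1 receptor signalling, 1 was past 2-fold higher and 0 lower in Hey PGCCs (median 0.00) and 3 higher and 0 lower in SKOV3 PGCCs (median 0.09). The shares of all genes past 2-fold higher were 7.67% and 9.94%, so the Hey count was near that background. The Hey gene was IRAK2, a kinase of the receptor complex, at 14.3 and 30.5 TPM. The SKOV3 genes were the kinase IRAK1, the adaptor TAB1 and the inhibitor TOLLIP, at 1.34, 1.08 and 1.47. Differences in this SKOV3 library followed GC content, and these 3 values were not recomputed with the GC and length trend removed. In daughter cells against parental cells 0 genes of this list were past 2-fold in either line. Of all genes, 6.31% were higher and 3.73% lower in Hey, and 15.1% and 6.34% in SKOV3. MYD88, the adaptor that the receptors share, stayed between 6.48 and 16.4 TPM in all libraries.

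Of 21 genes of inflammasomes, cytokine processing and release, 13 averaged 1 TPM or more. In Hey, 0 of the 21 were past 2-fold in PGCCs or daughter cells against parental cells (medians 0.05 and -0.02). Of all genes, 7.67% were higher and 5.22% lower in Hey PGCCs, and 6.31% and 3.73% in Hey daughter cells. In SKOV3, 3 were higher and 0 lower in PGCCs (median 0.00), namely the pore-forming GSDMD, the membrane rupture protein NINJ1 and the protease CAPN1, at 1.23, 1.36 and 1.42, against 9.94% of all genes higher. These 3 values were likewise not recomputed with the GC and length trend removed. In SKOV3 daughter cells 3 were higher and 0 lower (median 0.16), namely NLRP1, CARD16 and CASP4, a count near the 15.1% of all genes higher. CASP4, a caspase that senses lipopolysaccharide inside the cell, was 35.6, 29.9 and 136 TPM in SKOV3 and 202 to 248 TPM in Hey. PYCARD, the adaptor ASC that links many sensors to caspase-1, was listed at 0 in all 6 libraries, as were CARD17 and CARD18. NLRP3, a sensor of cell damage, was 7.08 to 11.4 TPM in Hey and did not exceed 0.372 TPM in SKOV3. CASP1 and CARD16 are near-identical over part of their sequence, so how their reads were divided is uncertain.

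The 22 genes known to respond to IL-1 are also targets of other NF-κB signals. They were chosen with earlier results of these data known. In Hey PGCCs, 19 of 22 were past 2-fold higher and 0 lower, with a median difference of 2.79, beside 7.67% and 5.22% of all genes and a median of 0. The 3 largest differences were those of the granulocyte-macrophage growth factor CSF2 (0.481 to 59.4 TPM), the protease MMP3 (0.0553 to 35.3 TPM) and the acute phase gene SAA1 (0 to 33.0 TPM). SAA1 shares near-identical sequence with SAA2, which makes its share of their reads uncertain. CSF2, MMP3 and PTGS2 (0.654 to 7.19 TPM) averaged 1 TPM or more only through the Hey PGCCs. There they were past 2-fold higher than in parental and in daughter cells. In Hey daughter cells against PGCCs, 21 of 22 were past 2-fold lower and 0 higher (median -3.02), beside 8.13% and 9.95% of all genes. Against parental cells 2 were higher and 5 lower (median -0.27), beside 6.31% and 3.73%. The higher ones were SAA1 and the granulocyte growth factor CSF3, and the lower ones were CXCL8, CXCL2, CXCL3, ICAM1 and NFKBIZ. SAA1 was past 2-fold higher in daughter cells of both lines, at 6.36 TPM in Hey (parental 0) and 61.9 TPM in SKOV3 (parental 22.3).

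In SKOV3 PGCCs, 3 of 22 response genes were past 2-fold higher and 0 lower, with a median of 0.13, near the 9.94% of all genes that were higher. These 3 were also past 2-fold higher in Hey PGCCs. IL6, the inflammatory cytokine of the list, was 8.74 and 168 TPM in Hey parental cells and PGCCs and 10.5 and 28.8 TPM in SKOV3. SOD2, a mitochondrial superoxide dismutase, was 38.0 and 500.3 TPM in Hey and 75.3 and 165 TPM in SKOV3. ICAM1, a leukocyte adhesion molecule, was 12.3 and 123 TPM in Hey and 0.282 and 2.49 TPM in SKOV3.

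In SKOV3 daughter cells, 11 of 22 response genes were past 2-fold higher than in parental cells and 1 (CSF2) lower, with a median of 1.13 beside 0.15 over all genes, of which 15.1% were higher and 6.34% lower. Against PGCCs 10 were higher and 0 lower (median 0.84), beside 14.6% and 9.25% of all genes. These were the cells in which IL1A and IL1B were lowest and IL1R1 highest. Of 3 examples chosen after their values had been seen, the first was the chemokine CCL2. It was listed at 0 in SKOV3 parental cells and PGCCs and at 591 TPM in daughter cells. CCL2 averaged 1 TPM or more only through these daughter cells, where it was counted as higher. In the same order, CXCL8 was 191, 179 and 663 TPM, and the apoptosis inhibitor BIRC3 was 28.3, 15.7 and 181 TPM. In Hey, CXCL8 was 149, 3488 and 49.8 TPM. Markers of other cells also differed between SKOV3 parental and daughter cells. CD68 was lower, as given above, and PTPRC was at 0.425 TPM in daughter cells. Of the 8 fibroblast markers, COL1A1 (2.35 and 16.3 TPM) and PDGFRB (0.280 and 5.35 TPM) were past 2-fold higher, DCN (1.33 and 0.0292 TPM) was past 2-fold lower, and LUM was 8.84 and 5.56 TPM. Of the 5 endothelial markers, CDH5 (0 and 2.56 TPM) was past 2-fold higher. The part of other cells in these differences was not tested.

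**Figure D4:**
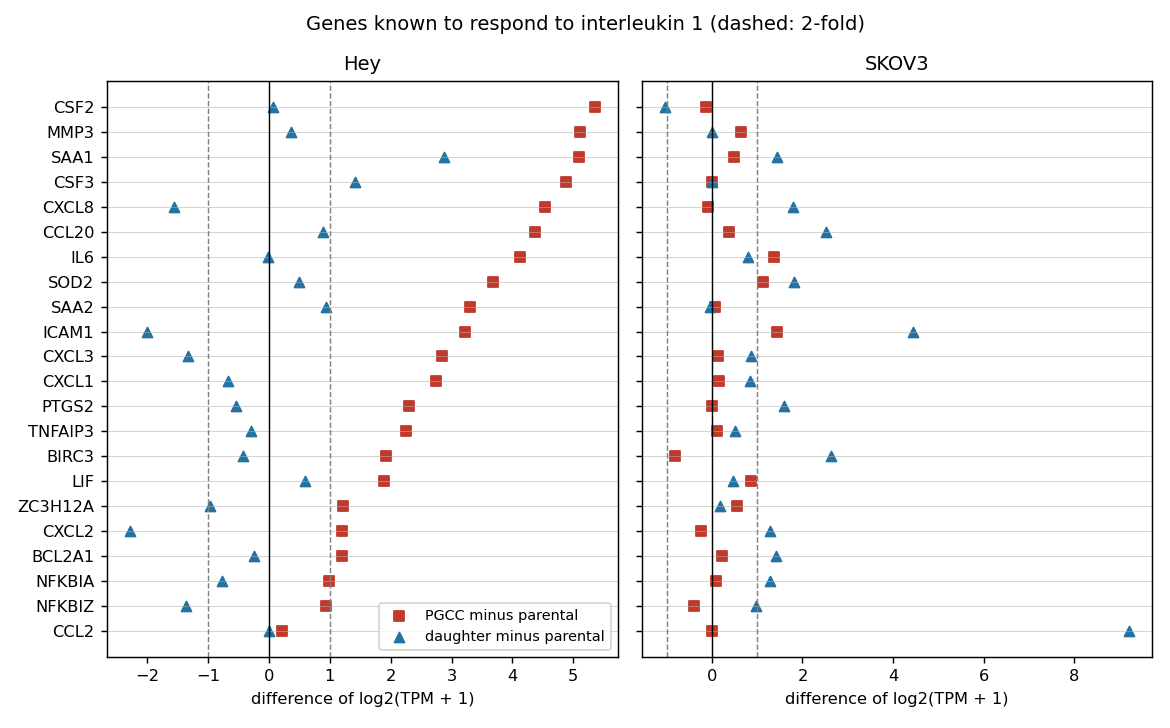
Difference of log2(TPM + 1) for the 22 genes known to respond to IL-1, PGCCs minus parental cells (red squares) and daughter cells minus parental cells (blue triangles), in Hey (left) and SKOV3 (right), 1 library against 1, dashed lines at 2-fold and a wider axis on the right. In Hey 19 squares are past 2-fold, and in SKOV3 3 squares and 11 triangles are.

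Genes whose levels followed those of the agonists over the 6 libraries were ranked by Pearson correlation of log2(TPM + 1). For IL1B the 5 nearest were SMG1P6 (0.996), CCDC144B (0.994), GLRX (0.993), MXD1 (0.993) and RPS27 (0.993). GLRX, a glutaredoxin, was 102, 199 and 97.3 TPM in Hey and 13.8, 13.3 and 3.78 TPM in SKOV3. For IL1A the 5 nearest were TM4SF1 (0.998), C11orf95 (0.994), PRICKLE2 (0.988), LINC00888 (0.986) and BNIP3P4 (0.983). TM4SF1, a membrane protein of tumour cells, was 371, 648 and 324 TPM in Hey and 298, 239 and 93.8 TPM in SKOV3. IL1A and IL1B correlated with each other at 0.933. Over 6 libraries of 2 lines such values are common, as 125 genes exceeded 0.95 with IL1B and 31 with IL1A, and they are given as a description.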

How the data were processed

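Total RNA of 6 cultures was sequenced, and the authors quantified the reads with salmon 0.14.1 on the human transcriptome (hg38). fastp is also named among the submitters' tools. The deposited values are TPM per gene symbol. They were used as deposited. How transcripts were combined into symbols and the annotation release are not given in the sources used here. TPM keeps no read counts, so depth and counting error per gene are unknown and no count test was used.

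The 10 members and all gene lists (further ligands, further receptors, receptor signalling, inflammasome and processing, response genes, and markers of leukocytes, endothelium, fibroblasts and epithelium) were chosen with earlier results of these data known. The text names all members, list genes past 2-fold in both lines the same way or among the 3 largest PGCC differences of a line, and the 5 genes most correlated with IL1A and IL1B. Counts of 5 or fewer are also named, as are some genes chosen after their values were seen.

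Differences of log2(TPM + 1) were taken within a line, with 2-fold as the threshold. The model over both lines used limma 3.58.1 (R 4.3.3) and the log2(TPM + 1) values of 14988 genes averaging 1 TPM or more, with state and cell line as terms, an intensity trend and Benjamini-Hochberg adjustment. Its spread is the disagreement between the lines. The steps were tested on simulated data. Alternatives were a pseudocount of 0.1, median ratio scaling, quantile normalization, mitochondrial genes left out, a lowess trend on GC content and length removed (fraction 0.3, 2 passes), thresholds of 1.5-fold and 3-fold, and a mean TPM of at least 5. Python 3.11.15, pandas 2.3.3, numpy 2.4.6, scipy 1.17.1, statsmodels 0.14.6 and matplotlib 3.10.9 were used. Positions are those of GENCODE 44 and upstream sequences those of RefSeq on GRCh38.p14, joined by symbol.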

Additional observations from a re-analysis of the deposited data

Results flagged for a closer look

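Members past 2-fold in 1 line with a difference of the opposite sign in the other line were singled out. Values are differences of log2(TPM + 1) from parental cells, and the difference between the lines was not tested, as each value is 1 library against 1. In PGCCs, IL1A was at 1.81 in Hey and -0.35 in SKOV3, 2.16 apart. IL1B was at 2.89 and -0.50, 3.39 apart. IL1RL1 was at 3.60 and -0.08, 3.68 apart, with no more than 0.231 TPM in any SKOV3 library. IL33 was at 1.07 and -0.60, 1.67 apart, with all its levels at or below 1.46 TPM. The sign of the SKOV3 value turned for IL1A (0.23) and IL1RL1 (0.27) when the GC and length trend was removed.

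In daughter cells, IL18 was at -5.36 in Hey and 0.49 in SKOV3, a difference of -5.85 for Hey minus SKOV3. IL1R1 was at -0.31 in Hey and 2.76 in SKOV3, a difference of -3.07. IL1RAP was at 1.03 in Hey and -0.03 in SKOV3, a difference of 1.06, where the SKOV3 value was 0.05 without mitochondrial genes and the Hey value was under 1 after 3 of the rescalings.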

How the results depend on the processing

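No member past 2-fold changed sign under any alternative. Of 288 recomputed member differences, 263 kept their sign and their side of 2-fold, 11 passed 2-fold newly, 7 no longer did and 7 under 2-fold changed sign. The number of members past 2-fold in Hey PGCCs was 3 instead of 5 after quantile normalization, at 3-fold and at a mean TPM of at least 5, which leaves out IL1RL1 and IL33. In SKOV3 PGCCs it was 2 instead of 0 with a pseudocount of 0.1 and at 1.5-fold, and 1 after quantile normalization. In Hey daughter cells it was 1 instead of 2 after median ratio scaling, quantile normalization, removal of the GC and length trend and at 3-fold, and in SKOV3 daughter cells 5 instead of 3 with a pseudocount of 0.1 and at 1.5-fold. Between the PGCCs of the lines it was 5 instead of 8 at a mean TPM of at least 5, 6 after median ratio scaling, after removal of the trend and at 3-fold, 7 after quantile normalization and without mitochondrial genes, and 9 with a pseudocount of 0.1 and at 1.5-fold. Removal of the trend left out IL1RN and IL33, so these could not be counted there. Apart from this and the changed thresholds and filter, the cause was not tested.

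For the response genes and the counts between lines, the alternatives were chosen after seeing the data. With a pseudocount of 0.1, 5 instead of 3 response genes were higher in SKOV3 PGCCs, 5 instead of 2 in Hey daughter cells than in parental cells, and 2 instead of 0 were lower in SKOV3 daughter cells than in PGCCs. The 1 lower response gene in SKOV3 daughter cells against parental cells, CSF2, was lost (0) after median ratio scaling, quantile normalization and removal of the trend. The median of all genes in SKOV3 daughter against parental cells was 0.15, and it was -0.02 after median ratio scaling and 0.23 without mitochondrial genes. Without mitochondrial genes the median in Hey PGCCs against parental cells was 0.11, in place of 0.

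limma called 0 members in all 3 contrasts under every setting, also with each library left out in turn (0 to 0) and without the cell line term. The GC and length trend could not be removed for IL1RN and IL33, which were below the mean TPM. The cell line term pairs the states within a line, and the labels give no other replicate numbers to pair by. TPM without counts and 1 library per state limit all values given here.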
